A study of Mus musculus with 36 samples.

Results

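The untreated libraries of 2 mouse lymphoma lines, 287 and AH47A, were compared with each other. They were chosen by their labelled cell line and treatment and make up 12 of the 36 RNA sequencing libraries of the series, 6 from each line. Both lines carry the labelled Em-myc background, in which a Myc transgene driven by an immunoglobulin heavy chain enhancer gives B cell lymphomas. In each line 1 library came from cells with a negative control construct, and the other 5 came from cells expressing a mutant TRP53 labelled G280, I192S, R246Q, R270H or V170M, which the design text calls human. The series also holds another line, 621, and libraries of all 3 lines after 5 µM nutlin-3a for 12 hours with 25 µM of the caspase inhibitor QVD-OPH. None of the 12 libraries had received nutlin-3a, and the labels do not say whether they had received the caspase inhibitor. The labels name no separate cultures, mice or tumours behind the libraries of a line. With construct in the model, the p-values measure only how the line difference spreads over the 6 construct pairs. A difference between 287 and AH47A therefore cannot be told apart from a difference between 2 individual tumours. The labels give no age or sex of the mice of origin.

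A developing B cell first joins V, D and J segments into a heavy chain gene with the RAG recombinase. It then pairs the heavy chain with a surrogate light chain while the IL-7 receptor drives growth. A kappa or lambda light chain gene is rearranged next, and mature B cells later gain MHC class II and migration receptors. Em-myc lymphomas can come from cells at either the pre-B or the B cell stage. p53 restrains such MYC-driven tumours, and MDM2, which nutlin-3a blocks, keeps p53 low.

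The 12 libraries held between 6584334 and 9698782 reads counted on genes. Levels are given as CPM, read counts scaled to a common, normalised library size, and each level is the median of a line's 6 libraries followed in brackets by the lowest and the highest. Differences are log2 values of 287 minus AH47A with their standard error, and a gene was called where edgeR's adjusted p was under 0.05. Genes described as higher or lower were called, unless the sentence says otherwise. Of 11031 genes tested, 7167 (65.0%) were called, 3588 (32.5%) higher and 3579 (32.4%) lower in 287, with a median difference of 0.0077 over all genes tested. With so many calls, the counts below are read against a stricter call as well, a difference beyond 2-fold, which 373 genes (3.38%) passed as higher and 506 genes (4.59%) as lower in 287. Lists of genes are given as counts among their members that passed the filter on low counts. A member that passed through 1 line alone had to differ, so these counts describe the lists and test nothing. Whether the groups of a gene overlap is likewise a description of that gene alone. The share of all genes tested whose groups do not overlap is not given here. Both lines carried transcripts of the B lineage. Pax5, the factor that keeps B cell identity, stood at 127 (123 to 135) CPM in AH47A and 135 (121 to 142) CPM in 287, and Ebf1, another B cell factor, at 137 (109 to 162) and 137 (121 to 147) CPM. Neither was called, and the groups overlapped. Summed T cell markers reached 22.1 to 40.7 CPM in AH47A and 11.5 to 18.9 CPM in 287, most of it Lck, a kinase with a mean of 24 and 7.51 CPM, while Cd3e and Cd4 had no read in either line. Summed NK cell markers stayed at or under 1.31 CPM and erythroid and platelet markers at or under 2.45 CPM in every library. Myeloid markers summed to 6.27 to 9.07 CPM in AH47A and 18.6 to 24.8 CPM in 287, of which the integrin gene Itgam made up a mean of 14.2 CPM in 287, and Mpo, Elane, S100a8 and S100a9 had no read. Stromal, endothelial and epithelial markers summed to 4.73 to 10.6 CPM in AH47A and 4.17 to 5.79 CPM in 287. They were led in AH47A by Epcam at a mean of 4.49 CPM, and Col1a1, Col1a2 and Krt8 had no read. In AH47A and 287 respectively, 5 and 7 of 15 T cell markers and 7 and 7 of 10 NK cell markers had no read. In the same order, it was 7 and 7 of 17 myeloid markers and 5 and 6 of 11 erythroid and platelet markers. For stromal, endothelial and epithelial markers it was 7 and 6 of 13. The part of such cells in the results below was not tested.

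The 2 lines overlapped in the level of the µ heavy chain but carried different V segments and different light chains. Ighm, the µ constant region, stood at 2104 (2019.6 to 2182) CPM in AH47A and 2007 (1859 to 2143) CPM in 287, and the groups overlapped (log2 -0.067 ± 0.04, adjusted p = 0.162). In each AH47A library 99.3 to 99.7% of the reads on 120 Ighv symbols fell on Ighv5-2, and in each 287 library 92.6 to 94% fell on Ighv2-6. Ighv5-2 had 206 (196 to 226) CPM in AH47A and 0.106 (0 to 0.223) CPM in 287 (log2 -10.65 ± 0.13), whereas Ighv2-6 had 0.202 (0.131 to 0.383) and 282 (267 to 300.5) CPM (log2 10.15 ± 0.094). Neither segment's groups came near each other. The joining segment Ighj1 had 56.9 (54.3 to 72.7) CPM in 287 and no read in AH47A, at least 940-fold higher against a floor of 3 counts over the 6 libraries, while Ighj3 had 44.8 (39.7 to 51.1) CPM in AH47A and 0.800 (0.453 to 1.62) CPM in 287. Reference sequences of the segments that set the lines apart are shown here as the last 200 bases of the germline coding exon, read from the GENCODE M21 transcripts of GRCm38. In the relatives that follow a segment, capitals mark the bases that differ from it.
Ighv5-2, the AH47A heavy chain segment, chr12:113578504-113578703, minus strand: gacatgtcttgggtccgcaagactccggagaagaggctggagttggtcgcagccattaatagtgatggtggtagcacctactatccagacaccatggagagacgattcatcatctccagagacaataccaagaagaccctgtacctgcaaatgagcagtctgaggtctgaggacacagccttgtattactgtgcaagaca
Ighv2-6, the 287 heavy chain segment, chr12:113716670-113716869, minus strand: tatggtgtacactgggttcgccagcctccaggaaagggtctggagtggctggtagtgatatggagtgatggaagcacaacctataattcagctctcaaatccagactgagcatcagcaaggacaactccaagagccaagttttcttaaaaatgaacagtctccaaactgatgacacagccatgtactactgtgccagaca
Ighv2-5, a relative with 663 reads in 287 and none in AH47A, chr12:113685482-113685681, minus strand: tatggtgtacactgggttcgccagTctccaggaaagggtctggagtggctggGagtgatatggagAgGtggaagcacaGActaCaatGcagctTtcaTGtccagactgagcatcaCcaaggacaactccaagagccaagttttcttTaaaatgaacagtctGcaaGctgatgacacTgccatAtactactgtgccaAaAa

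The light chains split the lines in the same way. AH47A libraries carried lambda 1 transcripts, with the constant gene Iglc1 at 354 (283 to 477) CPM and the segment Iglv1 at 223 (169 to 322) CPM, against 22.1 (6.88 to 45.3) and 7.53 (2.84 to 17.6) CPM in 287 (log2 -4.14 ± 0.42 and -4.75 ± 0.38). In 287 the kappa constant gene Igkc stood at 1894 (1632 to 2023) CPM, against 320.0 (309 to 349.6) CPM in AH47A (log2 2.52 ± 0.051). The groups did not overlap for any of these 3 genes. Of the reads on 103 Igkv symbols, Igkv10-96 took 55.8 to 68% in the 287 libraries, at 549.8 (504 to 644) CPM against 0.358 (0 to 0.818) CPM in AH47A. Igkv19-93 followed at 186 (168 to 237) CPM in 287 and 1.75 (0.906 to 2.69) CPM in AH47A, and Igkv10-94 at 81.5 (74.8 to 88.1) and 0.0681 (0 to 0.518) CPM. Igkv19-93 was not particular to 287, as it stood at 654 (539 to 679) CPM in 621. Igkv10-96 stood at 1.88 (0.475 to 2.47) CPM in 621. In AH47A only 146 to 313 reads a library fell on Igkv symbols, and no segment took more than 31.3% of them, the leading ones being Igkv9-124 and Igkv1-88. Iglv3 was not called (log2 -0.26 ± 0.18). The lambda constant gene Iglc3 was also higher in 287, at 45 (22.7 to 68.3) CPM against 0.458 (0.207 to 0.526) CPM (log2 6.75 ± 0.16). Within 287, Iglv1 was lowest in the I192S library and highest in the V170M library, while the AH47A heavy chain segment Ighv5-2 had 6 reads in all of 287. In bulk libraries, fewer cells with a transcript and less of it in each cell cannot be told apart. Igkv10-94 differs from Igkv10-96 in 14 of the 200 bases shown and Ighv2-5 from Ighv2-6 in 19. Of the other relatives, Igkv10-95 differs from Igkv10-96 in 16 bases and had a median of 3.71 CPM in 287. Ighv2-6-8 differs from Ighv2-6 in 11 bases and had a median of 3.56 CPM in 287. Whether reads of 1 segment were counted on its relative was not tested, and the split between them is uncertain. In the plot of immunoglobulin transcripts Ighm is the pair that lies level.
Iglv1, the AH47A lambda segment, chr16:19085017-19085216, minus strand: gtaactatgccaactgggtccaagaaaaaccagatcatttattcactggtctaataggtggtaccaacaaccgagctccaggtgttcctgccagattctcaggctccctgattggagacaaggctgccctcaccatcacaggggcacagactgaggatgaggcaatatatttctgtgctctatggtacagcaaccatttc
Igkv10-96, the leading 287 kappa segment, chr6:68631963-68632162, minus strand: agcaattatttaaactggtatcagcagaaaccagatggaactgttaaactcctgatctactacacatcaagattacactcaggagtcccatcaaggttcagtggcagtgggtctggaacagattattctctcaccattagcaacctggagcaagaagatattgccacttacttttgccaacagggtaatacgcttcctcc
Igkv10-94, its relative, chr6:68704508-68704707, minus strand: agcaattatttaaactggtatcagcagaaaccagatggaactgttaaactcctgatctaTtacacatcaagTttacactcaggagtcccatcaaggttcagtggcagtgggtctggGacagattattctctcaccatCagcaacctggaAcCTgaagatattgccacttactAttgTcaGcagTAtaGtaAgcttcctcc
Igkv19-93, the next 287 kappa segment, chr6:68736297-68736496, minus strand: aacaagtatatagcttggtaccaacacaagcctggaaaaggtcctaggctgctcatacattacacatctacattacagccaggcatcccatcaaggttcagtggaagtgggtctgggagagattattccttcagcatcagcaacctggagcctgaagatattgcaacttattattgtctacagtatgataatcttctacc

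**Figure D1:**
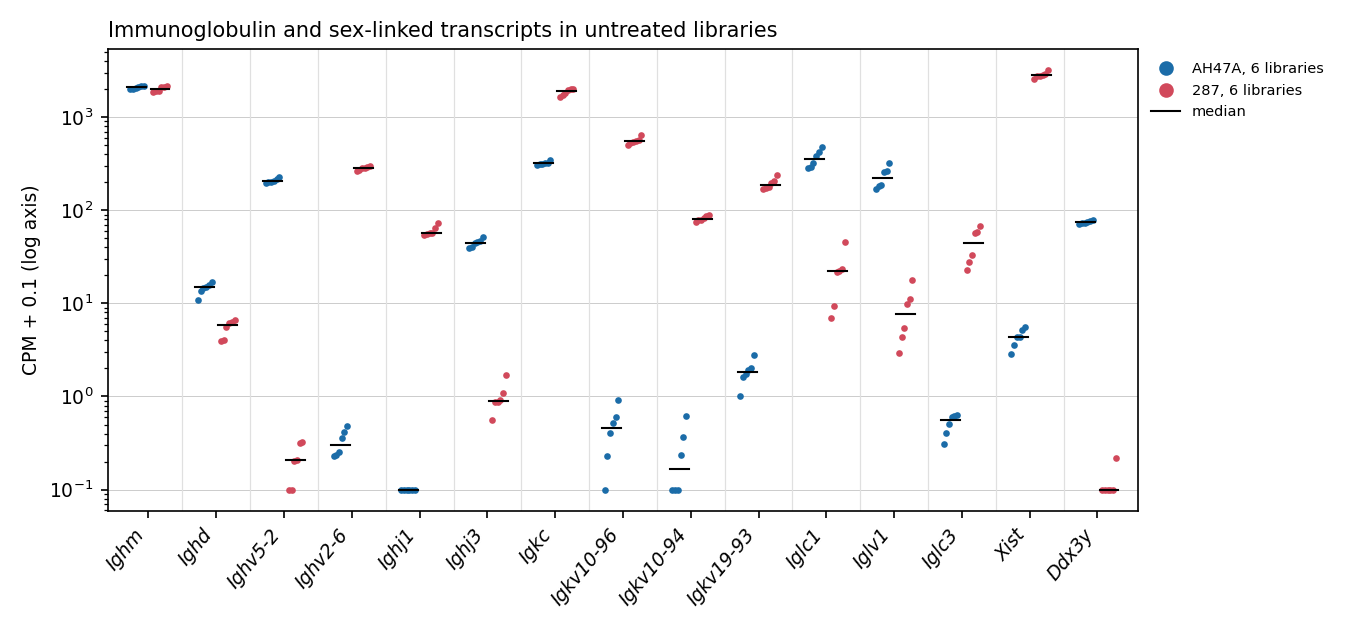
Level of 13 immunoglobulin genes, Xist and Ddx3y in the 12 untreated libraries, as CPM plus 0.1 on a log axis. Each point is 1 library, ordered by value within a line, and the black line is the median of 6. Ighm lies level at medians of 2104 and 2007 CPM, while Ighv5-2 and Iglv1 are high in AH47A and Ighv2-6, Ighj1 and Igkv10-96 are high in 287.

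Sex-linked transcripts also differed. Xist, the RNA that silences an X chromosome in female cells, stood at 2833 (2546 to 3199.8) CPM in 287 and 4.23 (2.79 to 5.52) CPM in AH47A (log2 9.38 ± 0.087). The Y-linked genes Ddx3y, Eif2s3y and Kdm5d had medians of 74.4, 104 and 45.6 CPM in AH47A, and 1, 2 and 1 reads over the 6 libraries of 287. Uty, also on the Y chromosome, differed by a log2 of -3.70 ± 0.46. The ratio for Ddx3y was 3898 with an exact 95% counting interval of 699.2 to 154010. All 12 libraries matched their line in these genes and in the heavy chain segment. In 621, Xist stood at a median of 3.80 CPM and Ddx3y at 0.107 CPM.

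Rag1, Rag2, Ly6d and Il7r were higher in 287. Rag1 and Rag2, the subunits of the RAG recombinase, stood at 68.3 (52.7 to 99.6) and 14.4 (8.35 to 17.8) CPM in 287 and at 0.268 (0 to 0.508) and 0 (0 to 0.207) CPM in AH47A. Rag1 differed by 8.24 ± 0.17, and the Rag2 ratio, on 3 reads in AH47A, was 210.1 with a counting interval of 71.6 to 1021. Ly6d, a surface marker of B cell commitment, stood at 0 (0 to 0.766) CPM in AH47A and 40.5 (17.4 to 65.1) CPM in 287, with 7 reads over all AH47A libraries that came mostly from R270H. Il7r, the IL-7 receptor chain that feeds pre-B cell growth, stood at 108 (96.4 to 115) and 222 (181 to 285) CPM (log2 1.06 ± 0.11, adjusted p = 0.000115). For all 4 genes every 287 library was above every AH47A library. Sox4, a factor needed for pro-B cells, was higher by 0.99 ± 0.048, and Vpreb3 by 0.96 ± 0.08. Cd93, an early B cell surface protein, was higher by 2.11 ± 0.40, with 69.8 (55.1 to 268) CPM in AH47A and 407 (341 to 441) CPM in 287.

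The surrogate light chain genes were not called. Igll1 stood at 166 (106 to 215) CPM in AH47A and 76.3 (52.1 to 184) CPM in 287 (log2 -0.83 ± 0.44, adjusted p = 0.151), and Vpreb1 at 64 (36.7 to 85.3) and 45.3 (31.1 to 96.5) CPM (log2 -0.23 ± 0.38, adjusted p = 0.624). Their groups overlapped, and each line spread widely in both genes. Vpreb1 and Vpreb2 are near-identical, so their split is uncertain. Enpep, the pre-B cell surface peptidase known as BP-1, was lower in 287, at 21.8 (16.9 to 38.2) CPM against 88.1 (54.1 to 108) CPM (log2 -1.74 ± 0.27). Flt3, a progenitor receptor, was lower, at a log2 of -2.32 ± 0.68, and rested largely on 1 library, with -1.28 once the control pair was left out: the AH47A control stood at 18.5 CPM, the other 5 AH47A libraries between 1.32 and 1.79 CPM and the 287 libraries at or under 1.10 CPM. Of 17 tested among 21 pro-B and pre-B cell genes, 9 were higher and 3 lower, 3 of them beyond 2-fold higher, and their median was 0.19. Kit, the stem cell factor receptor, had no read, and Dntt, which adds bases at V(D)J joints, fell below the filter on low counts with 75 reads in AH47A and 5 in 287. In 621 the median was 0.108 CPM for Igll1, 0.121 CPM for Vpreb1 and 306 CPM for Rag1.

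Genes of later B cell stages were split. Cd38, an ecto-enzyme of naive and activated B cells, stood at 13.6 (8.90 to 29.7) CPM in AH47A and 99.1 (84.1 to 104) CPM in 287 (log2 2.66 ± 0.26). S1pr1, the receptor for exit into blood, stood at 6.12 (5.52 to 9.21) and 25.6 (17.9 to 32.1) CPM (log2 1.91 ± 0.17). In both the groups did not overlap. Ccr7 was higher by 0.94 ± 0.055. The δ heavy chain transcript Ighd went the other way, at 14.8 (10.7 to 16.8) CPM in AH47A and 5.79 (3.82 to 6.57) CPM in 287 (log2 -1.44 ± 0.13). Fcmr, the Fc receptor for IgM, was lower in 287, at a log2 of -2.66 ± 0.33, as was Cd22, an inhibitory co-receptor, at -0.59 ± 0.044. Of 20 tested among 26 immature and mature B cell genes, 10 were higher and 6 lower, with 5 and 3 beyond 2-fold and a median of 0.42. Ms4a1, Cr2 and Fcer2a, which mark mature B cells, had 10, 6 and 9 reads over the AH47A libraries and 20, 17 and 11 over those of 287, too few to test. S1pr2, a receptor of germinal centre B cells, was the gene beyond 2-fold among the 8 tested of 18 germinal centre and plasma cell genes, at 18.3 (16.9 to 22.2) CPM in AH47A and 5.04 (3.49 to 7.86) CPM in 287 (log2 -1.76 ± 0.16). Of these 8 genes 4 were higher, among them Derl3 at 0.87 ± 0.31 (adjusted p = 0.0406, but between 0.0666 and 0.101 without any pair other than R246Q), and 3 lower (median 0.026), and Prdm1, the plasma cell factor, was not tested, with 3 reads in AH47A and 19 in 287.

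Of 33 tested among 36 B lineage transcription factors, 14 were higher and 10 lower in 287 (median 0.056), and 3 were beyond 2-fold. Bcl11a, a zinc finger repressor that early B cell development needs, stood at 93.3 (82.2 to 130.4) CPM in AH47A and 0.610 (0.330 to 1.89) CPM in 287 (log2 -6.86 ± 0.20). Lmo2, a LIM adaptor of progenitors and germinal centre cells, stood at 24.8 (20.6 to 31.9) and 3.88 (3.02 to 6.99) CPM (log2 -2.48 ± 0.19). Id3, which holds back E proteins, stood at 2.67 (2.16 to 3.82) and 15.2 (10.4 to 19.5) CPM (log2 2.44 ± 0.18). In each of the 3 the lines did not overlap. Irf4, which limits pre-B cell growth and promotes light chain rearrangement, was higher by 0.92 ± 0.044, the RAG activator Foxo1 by 0.97 ± 0.074, and Arid3a by 1.19 ± 0.09. Ikzf1, encoding Ikaros, was lower, at a log2 of -0.84 ± 0.041. The list also held Tcf3, at 0.40 ± 0.035, whose E2A proteins are held back by Id3, and Spib at -0.12 ± 0.042 (adjusted p = 0.0279, and 0.127 without the R246Q pair), whereas Bach2, Pou2af1, Spi1, Foxp1 and Ikzf3 were not called. Satb1, a chromatin organiser of lymphocytes outside this list, stood at 58.8 (50.2 to 77.5) CPM in AH47A and at or under 0.231 CPM in 287.

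**Figure D2:**
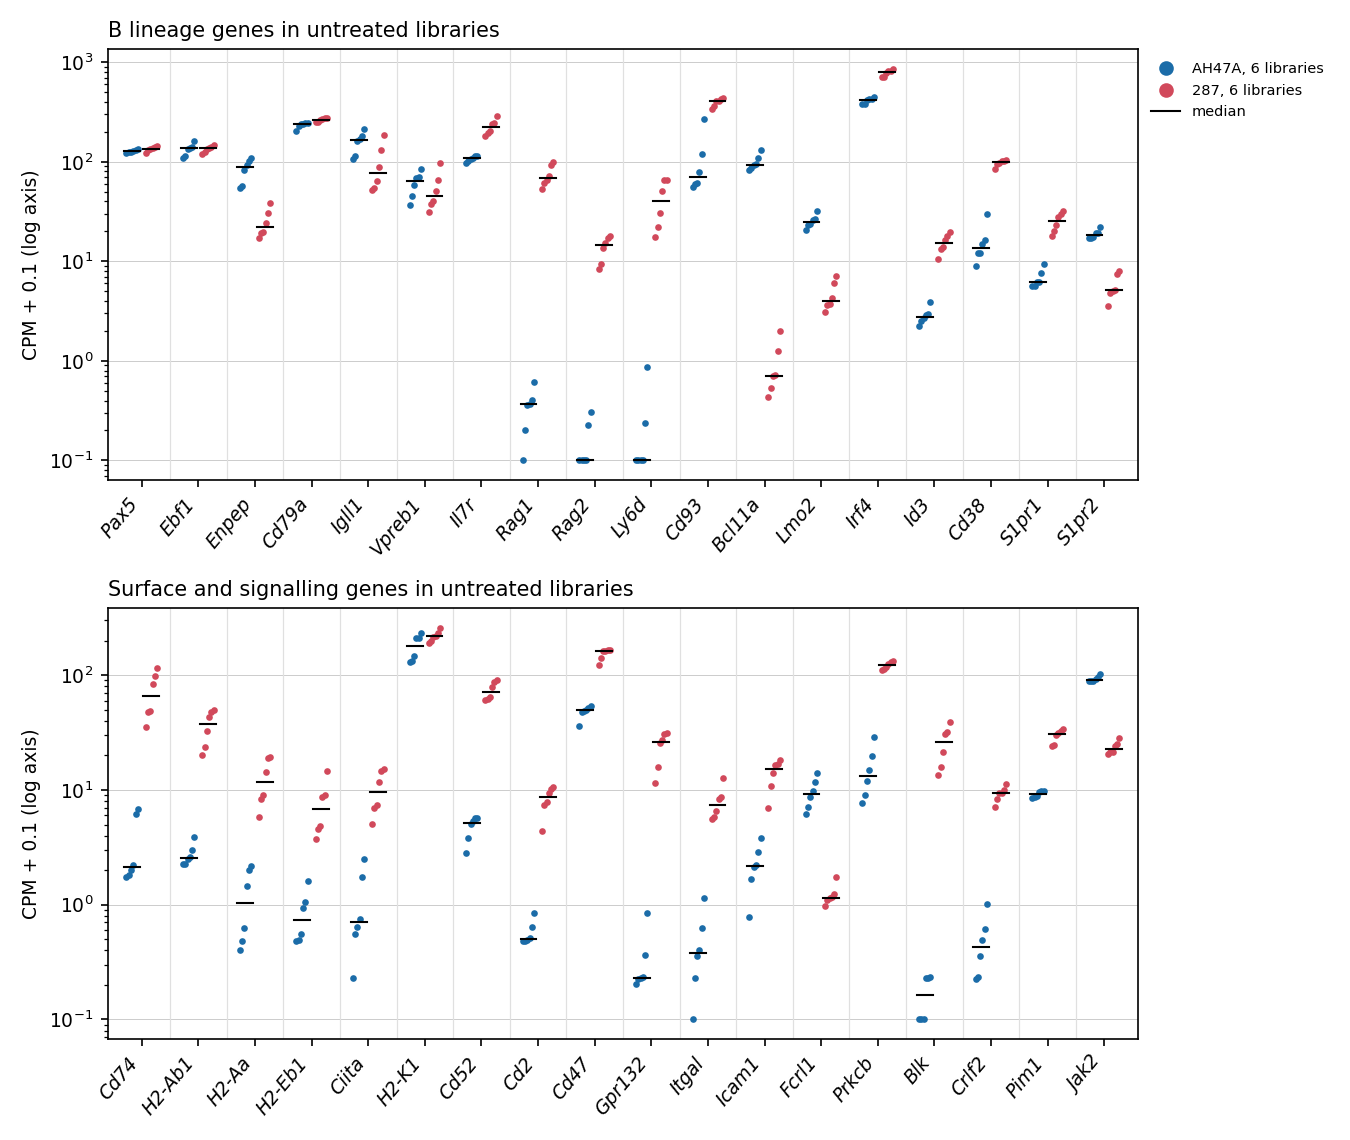
Level of 18 B lineage genes (upper) and 18 surface and signalling genes (lower) in the 12 untreated libraries, as CPM plus 0.1 on a log axis, with 1 point per library, ordered by value within a line, and the median of 6 as a line. Pax5 and Ebf1 lie level, Rag1, Rag2 and Ly6d are near the bottom of the axis in AH47A only, and Cd74 reads 2.01 CPM in AH47A and 65.7 CPM in 287 at the median.

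MHC class II genes, which present peptides to helper T cells, were higher in 287 as a group. Cd74, the invariant chain, stood at 2.01 (1.64 to 6.73) CPM in AH47A and 65.7 (34.9 to 116) CPM in 287 (log2 4.38 ± 0.24). The class II chains H2-Ab1, H2-Aa and H2-Eb1 had medians of 2.46, 0.944 and 0.640 CPM in AH47A and 37.6, 11.6 and 6.71 CPM in 287, with differences of 3.73 ± 0.13, 3.47 ± 0.32 and 3.24 ± 0.31. Ciita, their master activator, stood at 0.601 (0.128 to 2.38) and 9.50 (4.91 to 15.3) CPM (log2 3.37 ± 0.29). For these 5 genes no AH47A library reached the lowest 287 library. Their medians in 621 were 90.1 CPM for Cd74, 75.5 for H2-Ab1 and 8.04 for Ciita. H2-Eb2 was higher by 1.54 ± 0.19, H2-Ob was not called, and H2-DMa, H2-DMb1, H2-DMb2 and H2-Oa, whose proteins edit the bound peptide, had at most 22 reads in a line and were not tested. MHC class I differed less: H2-K1 stood at 179.8 (130.0 to 232) CPM in AH47A and 219 (191.7 to 259) CPM in 287 (log2 0.33 ± 0.18, adjusted p = 0.155), H2-D1 was higher by 0.82 ± 0.14 and B2m by 0.22 ± 0.084 (adjusted p = 0.0458, and 0.12 without the V170M pair), and H2-T22 was the 1 gene lower, at -0.25 ± 0.079. Of 19 tested among 23 MHC genes 14 were higher, 1 was lower and 6 were beyond 2-fold higher, with a median of 0.64. Sequenced reads of class I genes can be shared between near-identical members, so single class I values are uncertain.

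The class II genes carry an upstream module that ends in a Y box, and the part of 3 promoters that holds it is shown because these genes moved together. The search was for CTGATTGG on both strands in the 250 bases before the start site, in RefSeq promoters of GRCm38.p6. It was found in the promoters of H2-Aa, H2-Eb1, H2-Eb2 and H2-Oa, not in those of H2-DMa, H2-DMb1, H2-DMb2 and H2-Ob, and in 3.83% of all 32851 promoters. H2-Ab1 and Ciita had no entry and were not searched. Capitals mark the match, which starts 51, 62 and 103 bases before the start site in the order shown.
H2-Aa, chr17:34287824-34287934, minus strand: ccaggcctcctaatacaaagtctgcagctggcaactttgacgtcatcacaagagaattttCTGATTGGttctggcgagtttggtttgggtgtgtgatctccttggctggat
H2-Eb1, chr17:34305745-34305866, plus strand: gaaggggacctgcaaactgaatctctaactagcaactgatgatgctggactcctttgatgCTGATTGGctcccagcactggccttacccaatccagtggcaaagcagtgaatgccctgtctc
H2-Eb2, chr17:34325512-34325639, plus strand: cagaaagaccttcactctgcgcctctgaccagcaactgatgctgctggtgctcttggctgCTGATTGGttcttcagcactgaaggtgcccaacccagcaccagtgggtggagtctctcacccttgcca

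Other surface genes were mostly higher in 287. Cd52, a small glycoprotein of lymphocytes, stood at 5.09 (2.72 to 5.65) CPM in AH47A and 71.6 (60.3 to 90.8) CPM in 287 (log2 3.98 ± 0.092), and Cd2, an adhesion molecule, at 0.404 (0.381 to 0.755) and 8.56 (4.26 to 10.6) CPM (log2 4.08 ± 0.25). Cd47, the signal that keeps macrophages from engulfing a cell, stood at 49.2 (36 to 53.3) and 163 (123 to 166) CPM (log2 1.68 ± 0.11). None of these 3 overlapped between the lines. Among adhesion molecules 12 of the 20 tested of 27 genes were higher and 3 lower, 7 of them beyond 2-fold higher (median 0.57). Among integrin chains, Itgal, which pairs with the β2 chain to make LFA-1, stood at 0.278 (0 to 1.04) and 7.34 (5.44 to 12.6) CPM (log2 4.28 ± 0.32, and 4.94 without the R246Q pair), Itga5 was higher by 5.90 ± 0.35, Itgb3 by 2.34 ± 0.24, Itgam by 2.27 ± 0.13 and Itga6 by 1.55 ± 0.097. Icam1, the ligand of LFA-1, stood at 2.07 (0.681 to 3.73) and 15.2 (6.88 to 18.3) CPM (log2 2.68 ± 0.18). Cd99l2 was lower, at a log2 of -2.31 ± 0.16, and was the single adhesion gene beyond 2-fold in that direction. Cd44 and Itgb1 were not called.

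Of 8 tested among 20 chemokine and lipid receptors 6 were higher, 4 of them beyond 2-fold, and 1 was lower (median 1.3). Gpr132, a receptor for lipids and acid, stood at 0.132 (0.104 to 0.755) CPM in AH47A and 26.2 (11.4 to 31.5) CPM in 287 (log2 6.58 ± 0.27, and 7.28 without the V170M pair, whose AH47A library was the highest), and P2ry10, a receptor for lysophospholipids, at 0.582 (0.136 to 0.906) and 8.57 (6.12 to 11.3) CPM (log2 3.89 ± 0.24). Gpr18 was higher by 2.79 ± 0.32 and the sphingosine receptor S1pr4 by 1.5 ± 0.11, while the ATP-gated channel P2rx7 was lower, at -1.06 ± 0.23. Cxcr4, the receptor that keeps B cell precursors in bone marrow, was higher by 1.10 ± 0.061. All 11 tested of 26 SLAM, costimulatory and checkpoint genes were called, 9 higher and 2 lower (median 0.76). The 2 lower ones were Btla, an inhibitory receptor, at -1.18 ± 0.14, and Cd274, which encodes PD-L1, at -1.07 ± 0.17. Among the 10 tested of 22 inhibitory and Fc receptor genes 5 were higher and 3 lower (median 0.29): Fcrl1 stood at 9.17 (6.11 to 14.1) CPM in AH47A and 1.05 (0.874 to 1.65) CPM in 287 (log2 -3.04 ± 0.18), and Fcgr2b, the inhibitory IgG receptor of B cells, at 67.1 (60.6 to 74.1) and 148 (139 to 165) CPM (log2 1.17 ± 0.064). The scavenger receptor Cd36 was higher by 3.29 ± 0.39 and the lectin Clec2i lower, at -1.75 ± 0.18. Of 5 tested among 20 TNF receptor genes 2 were higher and 1 lower (median -0.27), with Tnfrsf1b at 1.23 ± 0.10 and Tnfrsf19 at -0.55 ± 0.16 (adjusted p = 0.0228, and 0.0702 without the R270H pair), and Fas had 1 read in each line.

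In B cell receptor signalling 17 of the 26 tested of 29 genes were higher and 4 lower in 287 (median 0.22). Blk, a SRC kinase of the receptor, had 3 reads in AH47A and stood at 26.1 (13.3 to 38.9) CPM in 287, a ratio of 393.1 with a counting interval of 134.2 to 1909. Prkcb, the kinase that passes the signal to NF-kB, stood at 13.2 (7.55 to 29.1) CPM in AH47A and 122 (111 to 133) CPM in 287 (log2 3.04 ± 0.23). These 2 genes were the ones beyond 2-fold. Lyn was higher by 0.82 ± 0.061, the co-receptor gene Cd81 by 1.08 ± 0.15, and Cd79a, part of the receptor itself, by 0.18 ± 0.038. Bcl10 and Malt1, which link the receptor to NF-kB, were not called. Of 20 tested among 22 NF-kB genes 14 were higher and 3 lower (median 0.29), and Nfkbid, at 6.53 (4.77 to 8.69) and 25.9 (23.1 to 30.6) CPM, was beyond 2-fold (log2 1.99 ± 0.093). Tnfaip3, the A20 brake on NF-kB, was lower, at -1.44 ± 0.35. It was low in both lines, at 2.60 (1.36 to 5.13) CPM in AH47A and 1.04 (0.302 to 1.89) CPM in 287, and its groups overlapped. Zap70, better known from T cells, was higher by 0.59 ± 0.17 and was the T cell marker that moved against Lck.

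Cytokine receptor and JAK-STAT genes were higher in 17 and lower in 4 of the 27 tested of 32 genes (median 0.51). Crlf2, the receptor chain for TSLP that pairs with the IL-7 receptor, stood at 0.325 (0.127 to 0.906) CPM in AH47A and 9.37 (7.01 to 11.2) CPM in 287 (log2 4.54 ± 0.29). Il2ra, which encodes the pre-B cell marker CD25, stood at 4.98 (4.24 to 7.50) and 22.6 (14.1 to 27.4) CPM (log2 2.03 ± 0.20). Both were higher in every 287 library than in any AH47A library. Pim1, Socs2 and Socs1 were higher by 1.68 ± 0.095, 1.48 ± 0.12 and 3.07 ± 0.42. Socs1 was low in both lines, at 0.215 (0 to 0.545) CPM in AH47A and 2.16 (1.66 to 2.87) CPM in 287. Jak2 was the gene beyond 2-fold lower, at 91.2 (88.1 to 103) CPM in AH47A and 22.8 (20.4 to 28.5) CPM in 287 (log2 -1.99 ± 0.081), while Jak1 was higher by 0.66 ± 0.051. Jak3 and Stat5a were not called, and Stat5b was higher by 0.60 ± 0.052. Of 16 tested among 36 interferon genes 10 were higher and 5 lower (median 0.28), with the factors Irf1 at 1.54 ± 0.13 and Irf5 at 1.23 ± 0.092, the DNA response adaptor Tmem173 (STING) at 1.18 ± 0.068, and the RNA sensors Ddx58 and Ifih1 at 1.71 ± 0.28 and -1.62 ± 0.21.

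RAS-MAPK genes were higher in 12 and lower in 3 of the 25 tested of 35 genes (median 0.14). Rasgrp1, which loads RAS with GTP after receptor signalling, stood at 0.323 (0.104 to 0.545) CPM in AH47A and 8.85 (2.73 to 11.5) CPM in 287 (log2 4.62 ± 0.34). Dusp5, a phosphatase induced by ERK, stood at 2.42 (1.58 to 3.77) and 16.4 (9.39 to 18.9) CPM (log2 2.68 ± 0.19), and Junb was higher by 1.42 ± 0.057 and Etv5, another ERK target, by 1.49 ± 0.20. Nras at -0.97 ± 0.041 and the kinase gene Braf at -0.61 ± 0.051 were lower, and Mapk3, which encodes ERK1, was not called. PI3K and mTOR genes leaned lower, with 7 higher and 14 lower of 26, all tested (median -0.14). Yet the 2 chains of PI3Kγ were beyond 2-fold higher: Pik3cg stood at 12.5 (9.06 to 16.5) and 55 (43.1 to 70.2) CPM (log2 2.13 ± 0.078) and Pik3r5 at 1.48 (0.789 to 3.32) and 13.3 (10.2 to 17.5) CPM (log2 2.97 ± 0.27). Trib2, a pseudokinase, was lower, at a log2 of -1.46 ± 0.11. Of 22 tested among 28 Notch, Wnt and TGF-β genes 6 were higher and 8 lower (median 0.021), with Notch1 at 0.28 ± 0.058, the Notch-modifying enzyme Lfng at 1.29 ± 0.083, the BMP receptor gene Bmpr1a at 1.67 ± 0.28 and Dtx4 at -2.13 ± 0.16.

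Reads on mouse Trp53 set the control construct apart from the mutants in both lines. Trp53 stood at 216.3 CPM in the AH47A control library and between 879.5 and 1073 CPM in its 5 mutant libraries, and at 289.5 CPM in the 287 control and between 1206 and 2579 CPM in the 287 mutants. Every 287 library was higher than the AH47A library of the same construct (log2 0.76 ± 0.18, adjusted p = 0.0106), but the call was lost when the construct was left out of the model (adjusted p = 0.143). Reads of the endogenous gene and of a construct cannot be told apart in these counts. Mdm2, the p53 target that degrades p53, stood at 77.5 (74.1 to 80.1) CPM in AH47A and 163 (145 to 176) CPM in 287 (log2 1.07 ± 0.043), and its relative Mdm4 was higher by 0.50 ± 0.049. Mdm2 lies in the last part of chromosome 10, whose genes had a median difference of 0.58, as described below. Cdkn2a, which encodes the p53-stabilising ARF protein, had 7 reads in AH47A and 4 in 287. Of 18 tested among 22 p53 regulators 9 were higher and 5 lower, none beyond 2-fold (median 0.17), with the acetyltransferase gene Kat5 at -0.43 ± 0.082.

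Arrest targets of p53 were higher in 6 and lower in 3 of 12 genes, all tested (median 0.31). Cdkn1a, the cell cycle inhibitor p21, stood at 0.640 (0.255 to 1.14) CPM in AH47A and 4.86 (3.06 to 5.79) CPM in 287 (log2 2.76 ± 0.29), and Plk2 at 8.82 (6.34 to 12.4) and 24.7 (21.1 to 28.8) CPM (log2 1.44 ± 0.11). Both were beyond 2-fold and free of overlap. Btg2 and Sfn were higher by 0.99 ± 0.055 and 1.35 ± 0.17, Gadd45g was lower, at a log2 of -1.09 ± 0.22, and Ccng1 was not called. Among the 12 tested of 17 death targets, 5 were higher and 1 was lower (median 0.13). Pmaip1, which encodes NOXA, stood at 2.29 (1.14 to 4.53) and 12.2 (11.6 to 14.3) CPM (log2 2.44 ± 0.25), whereas the RNA-binding Zmat3 stood at 54.1 (44.5 to 64.5) and 17.6 (10.9 to 28.6) CPM (log2 -1.60 ± 0.13). Bax and Bbc3, which encode BAX and PUMA, were not called, with differences of 0.11 ± 0.059 and 0.14 ± 0.12. The metabolic and repair targets were split, 6 higher and 7 lower of the 15 tested among 18 (median -0.056), with the damage sensor Ddb2 at 0.95 ± 0.17, and glutaminase Gls2 was the one beyond 2-fold, at 12.7 (10.6 to 14.3) and 3.79 (2.77 to 4.48) CPM (log2 -1.77 ± 0.12). Some targets lie in chromosome blocks that were shifted as a whole, described below: Zmat3 in one shifted lower in 287, and Gls2 in one shifted higher. Without the genes of those blocks, arrest targets were higher in 6 and lower in 2 of 10 (median 0.81), death targets higher in 4 and lower in 0 of 10 (median 0.13), and metabolic and repair targets higher in 6 and lower in 5 of 13 (median 0.16). The plot of the p53 pathway shows these levels library by library.

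**Figure D3:**
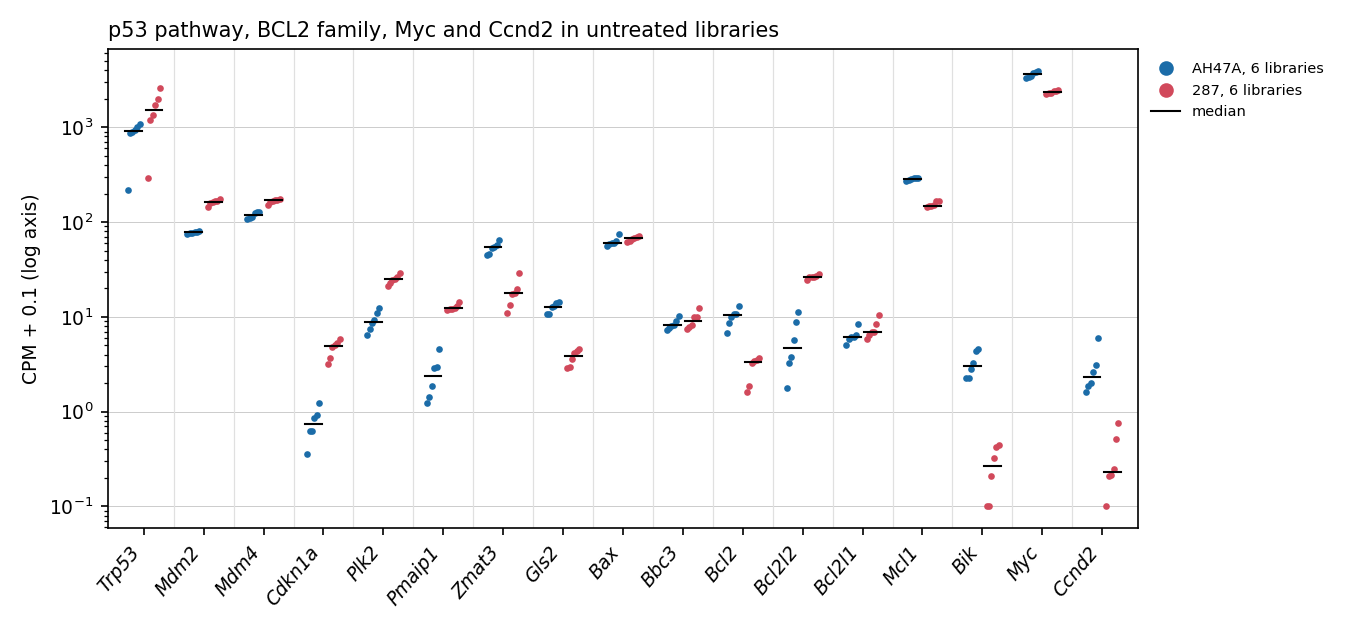
Level of p53 pathway, BCL2 family, Myc and Ccnd2 transcripts in the 12 untreated libraries, as CPM plus 0.1 on a log axis, with 1 point per library, ordered by value within a line, and the median of 6 as a line. The lowest Trp53 point of each line is its control construct, Mdm2, Cdkn1a, Plk2 and Pmaip1 are higher in 287, and Zmat3, Gls2, Bcl2 and Bik are lower.

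In the BCL2 family, 3 of the 13 tested of 19 genes were higher and 5 lower (median -0.031). Bcl2, a survival gene, stood at 10.3 (6.64 to 12.9) CPM in AH47A and 3.22 (1.53 to 3.59) CPM in 287 (log2 -1.84 ± 0.15), and Bcl2l2, which encodes the survival protein BCL-W, at 4.64 (1.66 to 11.2) and 26 (24.4 to 27.9) CPM (log2 2.31 ± 0.35). Mcl1, another survival gene, was lower, at a log2 of -0.90 ± 0.041, at 285 (274 to 295) and 149 (146 to 165) CPM, and lies on chromosome 3, where most genes were lower. Bcl2l1, which encodes BCL-XL, was not called. Of the death-promoting members Bik was lower, at 2.95 (2.16 to 4.47) and 0.166 (0 to 0.347) CPM (log2 -4.10 ± 0.44), Bid was higher by 0.66 ± 0.064, and Bcl2l11, which encodes BIM, was not called (-0.031 ± 0.053, adjusted p = 0.623). The groups overlapped in Bcl2l11 and not in Bcl2, Bcl2l2, Mcl1 or Bik.

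Myc, which includes reads of the transgene if its sequence is the mouse one, stood at 3605 (3304 to 3918) CPM in AH47A and 2366 (2237 to 2459) CPM in 287 (log2 -0.61 ± 0.041). The groups did not overlap. Of 12 tested among 14 MYC network genes 7 were higher and 2 lower (median 0.29), among them the MYC antagonists Mxd1 at 0.44 ± 0.10, Mxd4 at 0.52 ± 0.07 and Mnt at 0.20 ± 0.052, with the Myc neighbour Pvt1 at 0.62 ± 0.13, while Max, the partner of MYC, was not called. G1 cell cycle genes were split, 8 higher and 6 lower of the 22 tested among 24 (median -0.042). Ccnd2 was the one beyond 2-fold, at 2.23 (1.51 to 5.92) CPM in AH47A and 0.133 (0 to 0.655) CPM in 287 (log2 -3.37 ± 0.47), against 49.5 CPM at the median of 621. Cdk4 was higher by 0.71 ± 0.036, and lies in the same part of chromosome 10 as Mdm2, Ccnd3 by 0.68 ± 0.049 and E2f2 by 0.66 ± 0.042, and E2f1 was lower, at a log2 of -0.37 ± 0.045. Some of these G1 genes lie in chromosome blocks shifted as a whole, described below. Without the genes of those blocks, 4 of 16 were higher and 4 lower (median -0.065).

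Glycolysis genes were lower in 287 as a group, 20 of the 26 tested among 30 with 1 higher and a median of -0.56. Aldoa, the aldolase, stood at 1075 (1014 to 1256) CPM in AH47A and 428 (332 to 459) CPM in 287 (log2 -1.44 ± 0.072). Pfkm, a phosphofructokinase, stood at 52.4 (41.1 to 57.9) and 15 (11.1 to 17.4) CPM (log2 -1.78 ± 0.092). Pdk1, a kinase that inhibits pyruvate dehydrogenase, stood at 285 (268 to 306) and 100.02 (70.1 to 109) CPM (log2 -1.62 ± 0.065). The groups did not overlap in any of the 3. Smaller differences ran along the pathway, with Gpi1 at -0.91 ± 0.046, Tpi1 at -0.54 ± 0.047, Pgam1 at -1.08 ± 0.065, Pkm at -0.97 ± 0.043, Ldha at -0.46 ± 0.04 and the glucose carrier Slc2a1 at -0.41 ± 0.079. Pdk3 was beyond 2-fold lower, at -1.16 ± 0.065. Slc2a3, another glucose carrier, was the 1 gene higher, at 0.54 ± 0.071. Without the genes in chromosome blocks that were shifted as a whole, described below, 18 of 24 were lower and 1 higher. Genes induced by low oxygen gave the same picture, 15 of the 16 tested among 20 lower and none higher, with a median of -0.58. Egln3, a prolyl hydroxylase that marks HIF for destruction, stood at 96.7 (69.3 to 122) CPM in AH47A and 8.41 (3.93 to 21) CPM in 287 (log2 -3.33 ± 0.27). Bnip3, a mitophagy gene, stood at 75.6 (65.5 to 97.5) and 20.7 (7.16 to 30.8) CPM (log2 -2.14 ± 0.29), Ankrd37 was lower, at a log2 of -2.15 ± 0.21, and so was Adm, at -3.66 ± 0.49 (-4.26 without the V170M pair). Vegfa was at -0.30 ± 0.093 (adjusted p = 0.0187, and 0.0652 without the R246Q pair) and Hif1a itself at -0.28 ± 0.04. The hypoxia genes of 621 were nearer to AH47A, at medians of 70.4 CPM for Egln3, 60.7 for Bnip3 and 71.3 for Ankrd37, without a test. The labels give no oxygen level or culture density, and the part of either in these values was not tested.

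Sterol synthesis genes were lower in 23 and higher in 1 of the 25 tested among 26, with a median of -0.84. Pmvk, which phosphorylates mevalonate phosphate, stood at 64.8 (56.3 to 91) CPM in AH47A and 12.3 (10.4 to 16.9) CPM in 287 (log2 -2.43 ± 0.16), and Lss, which closes the sterol rings, at 101 (74.4 to 115) and 32.6 (25.2 to 37.7) CPM (log2 -1.63 ± 0.11). Hmgcs1, an early enzyme of the pathway, stood at 341 (261 to 363) and 179 (156 to 201) CPM (log2 -0.86 ± 0.097). None of the 3 overlapped. Cyp51, Sqle and Dhcr7 were lower, with log2 differences of -1.09 ± 0.079, -0.79 ± 0.069 and -0.95 ± 0.12, and so was Srebf2, the activator of the pathway, at -0.47 ± 0.053. Ebp was the 1 gene higher, at 0.38 ± 0.068. Off the shifted blocks 21 of 23 were lower and 1 higher.

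Fatty acid and lipid genes were lower in 17 and higher in 5 of the 29 tested among 39 (median -0.24). Scd1 and Scd2, the desaturases that make monounsaturated fatty acids, stood at 659 (625 to 929) and 2206 (2058 to 2983) CPM in AH47A and at 201 (179 to 236) and 744 (637 to 830.1) CPM in 287 (log2 -1.81 ± 0.13 and -1.69 ± 0.14). Cpt1a, the gate of mitochondrial fatty acid oxidation, stood at 41.5 (36.2 to 57.7) and 8.95 (7.21 to 14.3) CPM (log2 -2.20 ± 0.13). All 3 genes, and Fads1, Fads2 and Fads3, lie on chromosome 19, where the median difference was -0.37. Without the shifted blocks 8 of 18 lipid genes were lower and 5 higher, with a median of -0.045. Fasn, the fatty acid synthase on chromosome 11, was lower, at a log2 of -0.24 ± 0.053, and Acadl and Acadvl, which oxidise fatty acids, were higher by 0.64 ± 0.052 and 0.69 ± 0.068. Dgat2, which makes triglycerides, was lower, at -2.04 ± 0.23, and Acacb, an acetyl-CoA carboxylase, higher by 1.30 ± 0.34. Acacb was low in both lines, at 0.517 (0.273 to 1.28) CPM in AH47A and 1.48 (1.16 to 2.36) CPM in 287, and its groups overlapped.

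The mitochondrial lists did not follow glycolysis. Of 71 tested among 73 respiratory chain genes 26 were higher and 17 lower, none beyond 2-fold (median 0.046). Atp5b, the catalytic β subunit of ATP synthase, was at 0.51 ± 0.039, the complex I gene Ndufa12 at 0.79 ± 0.13 and Cox7a2l at -1.02 ± 0.087. Atp5b and Ndufa12 lie in shifted blocks of chromosome 10, described below. Without the shifted blocks 22 of 57 respiratory chain genes were higher and 12 lower. Citrate cycle genes were higher in 6 and lower in 12 of the 29 tested among 30 (median -0.067). Pcx, pyruvate carboxylase, was the one beyond 2-fold at 32.7 (27.5 to 43.8) CPM in AH47A and 9.47 (7.49 to 11.5) CPM in 287 (log2 -1.80 ± 0.076), and it too lies on chromosome 19. Mpc2, a subunit of the mitochondrial pyruvate carrier, was higher by 1.04 ± 0.095. Pentose phosphate and nucleotide genes were higher in 17 and lower in 8 of the 35 tested among 38 (median 0.084), with Rpia at 0.88 ± 0.042 and Impdh1 at -1.01 ± 0.065. Amino acid and ATF4 genes were lower in 19 and higher in 6 of the 34 tested among 39 (median -0.19): the serine synthesis gene Psat1 was at -0.91 ± 0.076, Atf4 at -0.43 ± 0.055 and the sulfur enzyme Cbs at -2.46 ± 0.30, while Slc43a1, a carrier of large neutral amino acids, was at 1.98 ± 0.28 and Glul at 0.84 ± 0.044.

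**Figure D4:**
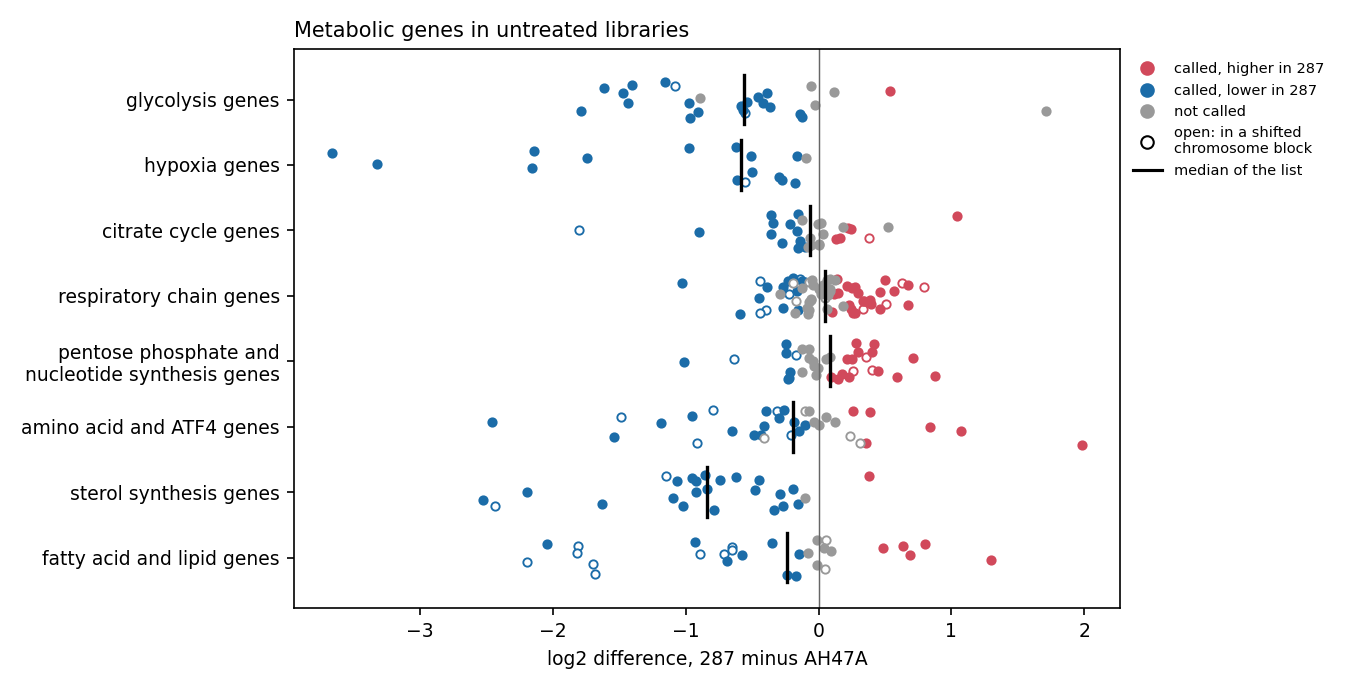
Log2 difference (287 minus AH47A) of every tested gene in 8 metabolic lists, with 1 point per gene and the list's median as a black line. Red and blue points were called, grey ones were not, and open points lie in shifted chromosome blocks. The medians of the glycolysis, hypoxia and sterol lists lie at -0.56, -0.58 and -0.84, while the medians of the citrate cycle, respiratory chain and nucleotide lists lie within 0.084 of 0.

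Whole chromosomes differed between the lines. Over 9025 genes with at least 5 CPM in both lines, each chromosome was split into 4 equal blocks of its genes in order, and 13 of 80 blocks had a median difference of at least 0.3 on the log2 scale and are called shifted here. The other 67 stayed within 0.113 of 0. All 4 blocks of chromosome 3 were lower in 287 (median of the chromosome -0.47, 78.4% of 416 genes called lower), as were all 4 of chromosome 19 (-0.37, 66.9% of 341 genes) and the last block of chromosome 2 (-0.62, 70.9% of 175 genes). The latter parts of chromosomes 10 (0.54 and 0.58 in its last 2 blocks) and 16 (0.37 and 0.34) were higher. In 621 the medians against AH47A were -0.043 on chromosome 3, -0.043 on chromosome 10, -0.013 on chromosome 16 and 0.13 on chromosome 19, and against 287 they were 0.46, -0.30, -0.26 and 0.48, so on these chromosomes 287 lay apart from both other lines, without a test. DNA copy number was not measured here. Several genes described above moved the way of their stretch, among them Mdm2, Cdk4, Socs2, Tcf3, Atp5b and Ndufa12 on chromosome 10. Jak2, Scd1, Cd274, Dtx4, Pgam1 and Psat1 on chromosome 19 and Cd47 on chromosome 16 did so too. So did Mcl1, Nras, Zmat3, Enpep, Fcrl1 and Pmvk on chromosome 3. Others went against theirs: Foxo1, Cd2, S1pr1 and Spg20 on chromosome 3 and Dusp5 on chromosome 19 were higher, and Gls2 on chromosome 10 and Btla on chromosome 16 were lower. Outside the shifted blocks, 3170 of 9493 tested genes were higher and 2766 lower.

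**Figure D5:**
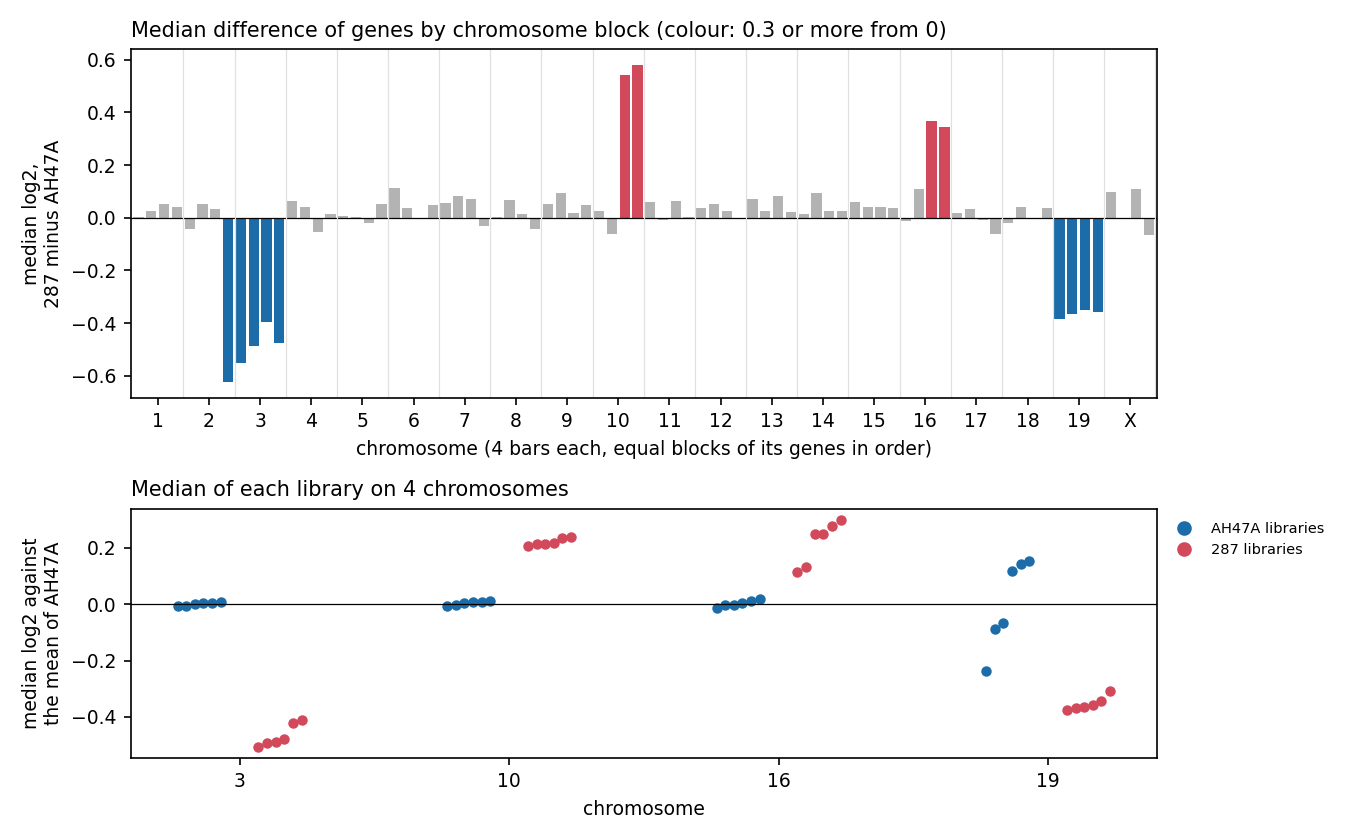
Upper: median log2 difference (287 minus AH47A) of the genes in each of 4 blocks of each chromosome, with the 13 blocks at 0.3 or more from 0 in colour. Lower: median log2 level of the genes of chromosomes 3, 10, 16 and 19 in each library against the mean of AH47A. Chromosome 3 lies between -0.50 and -0.41 in the 287 libraries, and the AH47A libraries spread from -0.24 to 0.15 on chromosome 19.

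The widest differences between the lines, outside the immunoglobulin segments and sex-linked genes, lay in genes of many kinds. In AH47A and not in 287, Tfpi, an inhibitor of blood clotting, stood at 30.9 (27.5 to 47.3) CPM, at least 589-fold higher than the floor of 3 counts over 287. Tmeff1 (at least 424-fold) and Zfp827 (at least 412-fold) likewise had no read in 287, and the B cell factor relative Ebf3 (at least 284-fold) ranged from 5.72 to 33.0 CPM in AH47A. Gja1, the gap junction protein connexin 43, stood at 112 (63.9 to 208) CPM in AH47A and at or under 0.334 CPM in 287 (log2 -9.63 ± 0.17). The ceramide synthase Cers6 stood at 43.1 (39.9 to 45.5) CPM in AH47A and had 3 reads in 287, and Bhlhb9 stood at 55.7 (49.2 to 61.5) CPM and had 1 read. Zc2hc1a, on chromosome 3, had no read in 287 (at least 206-fold). In the other direction Sox13, an SRY-related factor, stood at 23.1 (19.9 to 27.1) CPM in 287 with no read in AH47A (at least 370-fold), as did Rtl6 (at least 239-fold) and Arhgap42 (at least 171-fold). Spg20 was higher by 8.20 ± 0.13, at 0.144 (0.128 to 0.254) and 51.8 (46 to 73.2) CPM. Maoa, which oxidises monoamines, and the phosphodiesterase Pde1c each had 1 read in AH47A and medians of 12.9 and 14 CPM in 287, as did Fam78b with 8.85 CPM, and Tmem132e had 2 reads and 22.3 CPM. In 621 Tfpi and Tmeff1 were at a median of 0 CPM, Zfp827 at 12.2, Sox13 at 14.9 and Rtl6 at 10.1 CPM.

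Most differences were found again after nutlin-3a, in 12 other libraries of the same lines. There 1533 of 11258 genes (13.6%) were beyond 2-fold. Of the 879 genes beyond 2-fold when untreated, 822 were tested under nutlin, 803 had the same sign, and 610 were also beyond 2-fold in the same direction, 69.4% of the untreated list and 39.8% of the nutlin list. The direction was opposite, beyond 2-fold both times, in 3 genes: the secreted factor Gdf11 (-2.89 untreated, 2.74 under nutlin), Ifih1 (-1.62 and 2.19) and Adm (-3.66 and 2.03). The line difference of the mutant pairs was also compared with that of the control pair, which is a single library in each line. It was called for 1 gene of 11031 (0.00907%), with 211 genes at an unadjusted p under 0.05. It was Ptpn2, a phosphatase that acts on JAK and STAT proteins: the line difference was 1.37 in the control pair and between -0.41 and -0.21 in the 5 mutant pairs (difference -1.65, adjusted p = 0.000267). The 287 control library stood at 258 CPM, the 5 other 287 libraries between 78.2 and 82.8 CPM and the AH47A libraries between 90.4 and 104 CPM, so a single library carries this value, and a dependence on the construct cannot be told apart from a difference in that library.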

How the data were processed

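The authors deposited a table of raw read counts per gene for 36 libraries. The labels' protocols describe a Trizol lysis followed by RNeasy columns and Illumina's standard library preparation. The submitters' processing notes name bcl2fastq 1.8.4, featureCounts and the mouse build GRCm38 (mm10). For the aligner, annotation and strand setting: not given in the sources used here. The 36 single-library files hold the same deposited counts, and no 2 libraries are identical.

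The untreated columns of lines 287 and AH47A were tested with edgeR 4.0.16 in R 4.3.3 (TMM scaling, filterByExpr with a minimum count of 10, robust quasi-likelihood fit) with terms for construct and line, adjusted by Benjamini-Hochberg over 11031 genes that held 99.86% of counts. The other 16148 genes of 27179 were set aside. Differences beyond 2-fold came from glmTreat. The biological coefficient of variation was 7.58%, with 5 residual degrees of freedom. Intervals cover counting error only. Rows without a symbol held 0.283% of counts. The fit was tested on simulated data. Alternatives were DESeq2 1.42.0, its size factors, no filter, no construct term, more libraries, and leaving out each construct pair. The members and the 38 gene lists were chosen with earlier results of these data known. Named genes were the 12 highest and 12 lowest differences beyond 2-fold, up to 4 in each direction in each list, a list of key genes, and the leading V segments. Other list members were named after their values were seen. Levels in 621 are descriptions. Some list members are not reported here by name.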

Additional observations from a re-analysis of the deposited data

Results flagged for a closer look

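Of 423 combinations of a gene named above and a line, 27 had 1 library that lay apart from the other 5 by the gap to its nearest neighbour over the whole range (Dixon's 95% critical value for 6 libraries). Chance flags about 1 in 20 such groups, and genes of a library are not independent. The R270H library of AH47A was set apart in 7 genes: Cd93 at 268.4 CPM against 55.1 to 119 in the other 5, Cd38 at 29.75 CPM, Cd81 at 73.16, Satb1 at 77.5, H2-Ob at 19.79, Tpi1 at 693.4 and, as the lowest, Cd79a at 202.9 CPM. In Cd93, Cd38 and Cd81 it lay towards the level of 287.

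Both control libraries were set apart in a gene of interest. In AH47A the control was lowest in Trp53 at 216.3 CPM and highest in Flt3 at 18.53 CPM. In 287 the control was highest in Ptpn2 at 258 CPM. That same library gives Ptpn2 its difference of -1.648 between the line differences of the mutant pairs and the control pair, so the values are 1 observation, and construct and library cannot be told apart.

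Other libraries of AH47A lay apart in Ccnd2 at 5.916 CPM and Cd47 at 36.02 CPM (G280), Il2ra at 7.495 CPM (I192S), Derl3 at 18.53 CPM, E2f2 at 208.8 CPM and Tfpi at 47.3 CPM (R246Q), and Hif1a at 165.4 CPM (V170M). In 287 the G280 library lay apart in Bmpr1a at 10.02 CPM, Fcrl1 at 1.652 CPM and Iglv3 at 6.056 CPM. The 287 R246Q library lay apart in Acacb at 2.361 CPM, Btg2 at 120.5 CPM, Gadd45g at 14.78 CPM and Spi1 at 66.01 CPM. Single genes were Cox7a2l at 80.26 CPM (I192S), Spg20 at 73.24 CPM (R270H) and Malt1 at 64.02 CPM (V170M).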

How the results depend on the processing

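The count of called genes ranged from 6237 (DESeq2) to 7754 (no filter on low counts) around 7167, and the count beyond 2-fold from 748 (DESeq2) to 1183 (no filter) around 879. Leaving out each construct pair gave 6642 to 6976 called genes and 806 to 906 beyond 2-fold. Without the construct term, the fit with no replicate block called 7368 genes and 906 beyond 2-fold, 854 of the 879 among them. The libraries share only a construct name: same-construct deviations correlated between -0.14 and 0.186, other pairs between -0.152 and 0.176, and 1 of 6 libraries was best matched by its own construct. Over 235 genes of the text and 12 alternatives, the direction turned in Ptpn2 alone. Its log2 difference was 0.0139, not called, and became -0.27 without the control pair. Under changed settings, calls were lost in B2m, Cd79a, Derl3, H2-T22, Mnt, Notch1, Spib, Tnfrsf19, Trp53 and Zap70, and Igll1 became called with all 18 untreated libraries (adjusted p = 0.0392) or all 36 (0.016). With 1 pair left out, calls were lost in B2m, Derl3, Spib, Tnfrsf19 and Vegfa, and Bax, Foxp1 and Mapk3 became called. Without the shifted chromosome blocks, chosen after the data were seen, the lower genes of 29 lipid genes went from 17 to 8, of the BCL2 family from 5 to 3, of JAK-STAT and B cell receptor genes from 4 to 2 each, of NF-kB genes from 3 to 1, of SLAM genes from 2 to 0, and higher G1 genes from 8 to 4. Genes with fewer than about 10 reads per library were mostly not tested, so a low gene that was not called is no evidence of equal levels.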

Other observations

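The libraries of a line were compared on chromosomes 3, 10, 16 and 19. On chromosome 19 the median level of the 6 AH47A libraries, against their mean, was -0.24 in R246Q, -0.089 in G280 and -0.067 in the control, and 0.12 in V170M, 0.14 in I192S and 0.15 in R270H. On chromosome 16 the 287 libraries stood at 0.11 in I192S and 0.13 in V170M, and between 0.25 and 0.30 in the other 4, against the AH47A mean. The lambda 1 genes Iglc1 and Iglv1 lie in block 2 of chromosome 16, which was not shifted (median 0.11). On chromosome 3 the AH47A libraries lay between -0.0066 and 0.0069 and the 287 libraries between -0.50 in I192S and -0.41 in V170M. On chromosome 10 they lay between -0.0054 and 0.010 in AH47A and between 0.21 and 0.24 in 287.

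In 621, chromosome 12 had a median difference of 0.50 against AH47A and 0.47 against 287, while 287 minus AH47A was 0.029 there.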
